A study of Mus musculus with 4 samples.

Results

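Ribosome biogenesis and nucleolar genes encode the machinery that transcribes, modifies, cuts and assembles ribosomal RNA into the small and large ribosomal subunits. A list of 36 such genes was named by symbol, and each gene was represented by the probe set with the highest mean signal over the 4 arrays. All 36 genes had a probe set, out of 18193 genes with one on the array. The list was drawn up with earlier results of these data known.

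The RNA was that of mouse helper (CD4+) T lymphocytes, naive when isolated from the spleen and from mesenteric and peripheral lymph nodes. All cultures ran for 7 days in RPMI medium with 10% serum and with 2.5 ug/ml concanavalin A, a lectin used to activate such cells. In one group, with 2 arrays, 1 ng/ml of human TGFb1, a cytokine that restrains T cell growth, was joined by 2000 ng/ml of the steroid hormone progesterone. In the other, also with 2 arrays, TGFb1 was given alone, so all cultures had both the lectin and TGFb1. The labels name no mouse strain, age or sex, and they do not say whether the replicates came from separate cultures or animals. The p-values below thus cover the spread between these samples alone, and it may be technical.

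The nucleolus forms around ribosomal RNA genes that RNA polymerase I transcribes. The precursor RNA is modified by small nucleolar ribonucleoproteins, namely the box C/D particles that methylate it and the box H/ACA particles that convert uridine to pseudouridine. It is then cut and folded by separate sets of factors for the small and the large subunit. Activated T cells enlarge their nucleoli as they grow and divide, and Myc, a transcription factor that binds the E-box sequence CACGTG, is a well known activator of many genes of this pathway.

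Promoter sequence is shown first, because the E-box is the textbook link between Myc and these genes and Myc was lower in the progesterone arrays. A part of Myc in the differences given below was not tested. RefSeq promoter windows on GRCm38.p6, each running from 250 bases before to 50 bases after the gene start, matched 29 of the 36 genes by symbol. Tcof1, Npm1, Fbl, Rrp12, Bop1, Gnl2 and Rrs1 were not matched. The E-box was searched as CACGTG, which reads the same on both strands, and 6 of the 29 genes (20.7%) held it, against 12.1% of the 8587 tested genes with a window and 8.09% of all 27025 genes with one. Each line below gives 30 bases, 5′ to 3′ on the strand of the gene, with the E-box in capitals.
Nop2 (chr6:125131811-125131840, plus strand): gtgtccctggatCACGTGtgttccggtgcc
Mybbp1a (chr11:72441347-72441376, plus strand): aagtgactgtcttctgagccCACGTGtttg
Pes1 (chr11:3963965-3963994, plus strand): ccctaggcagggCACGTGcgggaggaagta
Utp18 (chr11:93885769-93885798, minus strand): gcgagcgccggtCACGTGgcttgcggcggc
Utp20 (chr10:88826765-88826794, minus strand): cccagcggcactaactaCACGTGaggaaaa
Wdr43 (chr17:71616220-71616249, plus strand): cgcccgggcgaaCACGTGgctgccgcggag

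The E-box of Nop2 began 60 bases before the gene start and that of Utp18 20 bases before it. In Pes1, Wdr43, Utp20 and Mybbp1a it began at bases 3, 18, 38 and 41 after the start. These matches describe letters in a window and say nothing of whether a factor was bound. The ETS motif CCGGAAG was present in 9 of the 29 windows (31.0%), against 21.8% of the tested genes, and the GC box GGGCGG in 21 (72.4%), against 69.4%, each searched on both strands. Gnl3, picked out after its count was seen, held 10 GC boxes, counted with their overlaps, a number that 15 of the 8587 tested genes (0.175%) reached or passed, against a median of 1. The 250 bases before its start hold all 10 of them and are shown with the GC boxes of either strand in capitals.
Gnl3 (chr14:31019132-31019381, minus strand): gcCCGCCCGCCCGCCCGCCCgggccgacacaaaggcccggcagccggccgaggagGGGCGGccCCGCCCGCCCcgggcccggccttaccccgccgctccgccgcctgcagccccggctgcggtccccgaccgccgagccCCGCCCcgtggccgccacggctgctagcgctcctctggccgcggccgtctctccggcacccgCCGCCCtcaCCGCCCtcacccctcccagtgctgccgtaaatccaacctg

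Each array held 45101 probe sets with MAS5 signal on a linear scale. Trimmed means came to 137.8 and 107.7 for the progesterone arrays, against 154.5 and 145.4 in the TGFb1 arrays, and quantile-normalised signals were therefore used, with results from the deposited ones beside them. Pearson's r across the 10512 genes tested, which are not independent replicates, was 0.985 between the progesterone arrays, 0.981 between the TGFb1 arrays and 0.936 to 0.960 from one group to the other. T cell markers were bright in every array. Cd3d lay at 6775 and 6648 in the progesterone arrays and 6370 and 6608 in the TGFb1 arrays, and Thy1 at 4283 and 4898, against 4394 and 5126. The summed signal of 5 T cell markers was 20559 and 21015 in the progesterone arrays and 19892 and 21422 in the TGFb1 arrays. Log2 differences of the 5, progesterone minus TGFb1, ran from -0.34 to 0.11, and none had an adjusted p under 0.05 (limma). At an unadjusted p under 0.05, 1 was lower, where 12.3% of all genes were. As deposited, 1 was lower at an adjusted p under 0.05, where 7.63% of all genes were.

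Sex chromosome genes separated the groups too, so the sex of the source animals and the treatment cannot be told apart. Xist, an RNA of the inactive X of female cells, was at 1432 and 1107 in the progesterone arrays, against 10.6 and 10.8 in the TGFb1 arrays. The Y-linked gene Eif2s3y was at 3.32 and 0.502, against 595.9 and 670.7, and Kdm5d (-3.77) and Uty (-3.20) differed in the same direction. Markers of other cell types were dim with 1 exception. The summed signal of 5 myeloid markers was 827.3 and 956.8 in the progesterone arrays, against 356.4 and 181.2 in the TGFb1 arrays. Most of the sum in the progesterone arrays was the lysozyme gene Lyz2. It alone changed among them, at 684.6 and 770.7, against 173.0 and 54.1 (adjusted p = 0.0070, limma). Csf1r was at 44.0 and 84.6, against 43.7 and 64.1. Of the 4 myeloid markers tested, 3 had a log2 difference above 0. The other, at -0.81, lay lower in both progesterone arrays than in both TGFb1 arrays. The summed signal of 3 B cell markers was 146.1 and 82.7, against 79.3 and 64.6, with Cd79b at 59.1 and 37.0, against 41.2 and 39.7, and Cd79a at 59.8 and 24.9, against 18.8 and 17.5. For 2 CD8 T cell markers it was 154.1 and 102.2, against 142.8 and 169.7, from Cd8b1 at 107.6 and 63.3, against 97.8 and 115.9, and Cd8a at 46.5 and 38.9, against 45.0 and 53.8. The natural killer cell marker Ncr1 was at 13.0 and 21.0, against 4.66 and 12.2. The part of these differences in the results below was not tested, and in cultures measured in bulk, fewer cells of a type and less RNA per cell cannot be told apart.

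The comparison addresses what progesterone adds to TGFb1, although the sex chromosome difference above cannot be told apart from the treatment. For the ribosome biogenesis genes the differences were small. Gnl3, Nop2, Rrs1 and Mybbp1a, had higher signal in the progesterone arrays and passed the test, no gene passed as lower, and no gene differed by 2-fold. Every difference is progesterone minus TGFb1 in log2(signal + 16), where dim genes appear to change less than they do, and carries limma's standard error (SE) with 2 arrays per group. Adjusted p-values are limma's, by Benjamini-Hochberg over all 10512 genes, with a threshold of 0.05. Of the 36 genes, 35 lay above the level filter, and 4 of these passed, all as higher, where 8.30% of all tested genes passed in either direction and 3.05% as higher. None passed as lower, where 5.25% of all genes did, and at an unadjusted p under 0.05 there were 10 higher and 1 lower, with a background of 11.7% and 12.3%. The median difference over the 35 was 0.20, against 0.02 over all genes tested. The difference was above 0 for 28 of the 35, where 53.1% of all genes were. With Rrp12, the gene under the filter, the median over all 36 was 0.19.

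Scaling moved these counts. On deposited values no ribosome biogenesis gene passed in either direction, where 9.07% of all genes did, 1.44% as higher and 7.63% as lower. At an unadjusted p under 0.05 the deposited values gave 2 genes as higher and 1 as lower, with a background of 3.33% and 18.0%. The median of the 35 was then -0.06, against -0.22 over all genes, and 12 of the 35 had a difference above 0, where 26.4% of all genes did. The distance between the median of the list and that of all genes was 0.18 with quantile normalisation and 0.16 as deposited. The fit to deposited values had an infinite prior, against 5.56 prior degrees of freedom after quantile normalisation, and so ignored the spread of single genes. The 2 progesterone arrays both lay above the 2 TGFb1 arrays for 17 of the 35 genes, where 29.8% of all genes did, and both lay below for 2, where 26.1% did. As deposited, 3 genes lay fully above (10.5% of all genes) and 6 fully below (45.0%).

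**Figure D1:**
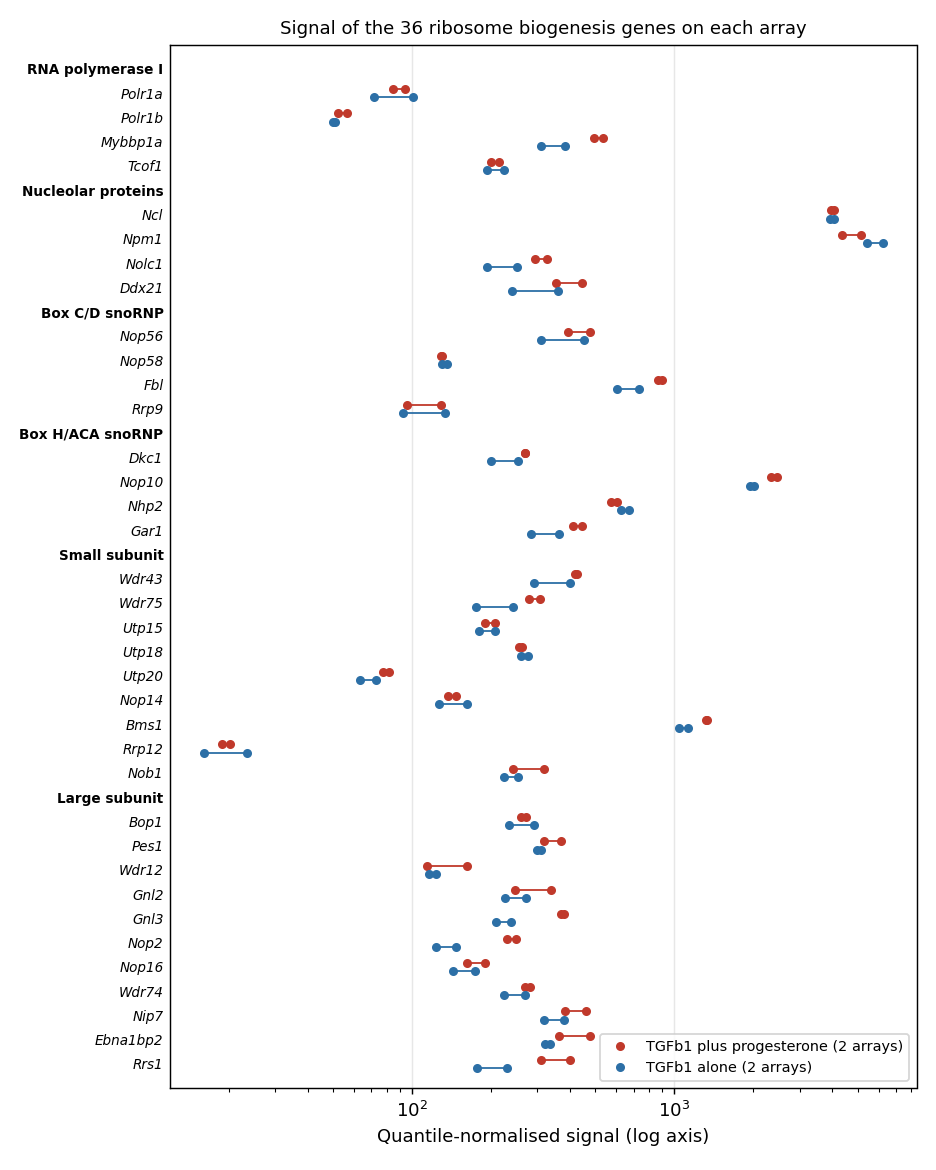
Quantile-normalised signal (log axis) of the 36 ribosome biogenesis genes, grouped by role, with 1 point per array and a line joining the 2 arrays of a group; red, TGFb1 plus progesterone, and blue, TGFb1 alone. The red pair lies wholly to the right of the blue pair for 17 of the 35 tested genes (29.8% of all genes), among them Gnl3, Nop2, Rrs1 and Mybbp1a. It lies wholly to the left for 2, Npm1 and Nhp2 (26.1% of all genes).

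The genes covered a wide range of signal. Mean signal over the 4 arrays ran from 19.7 for Rrp12 to 5273 for Npm1, with a median of 265.5, and 6 genes lay in the upper 25% of the genes tested. The array that stood lowest was most often TGFb1 replicate 1, for 28 of the 36 genes. The second TGFb1 array exceeded the first for 30 of the 36, by a median of 0.24 on the log2 scale, where 54.1% of all genes did so, by a median of 0.03. The 2 progesterone arrays differed less in these genes, with replicate 2 higher for 21 of 36 and a median of 0.04. The median gap inside the TGFb1 group was thus larger than the median difference between the groups.

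Among genes of RNA polymerase I transcription, Mybbp1a, which encodes a Myb-binding protein of the nucleolus that takes part in ribosomal RNA synthesis and processing, was at 533.1 and 494.4 in the progesterone arrays, against 309.2 and 382.7 in the TGFb1 arrays. The groups did not overlap, and the difference of 0.56 ± 0.14 (SE) had an adjusted p = 0.0496, just under the threshold. Polr1a, the largest subunit of RNA polymerase I, was at 84.7 and 94.4, against 71.4 and 100.7, and its groups overlapped. Polr1b, its partner in the catalytic core, was dim at 56.6 and 52.2, against 50.2 and 51.0 (0.08 ± 0.20, adjusted p = 0.85). Tcof1, which encodes treacle, a protein that promotes transcription of ribosomal RNA genes, was at 200.2 and 215.1, against 193.6 and 223.5 (0.00 ± 0.14). The 2 polymerase subunits and treacle thus showed no difference that passed the test.

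None of the 4 genes of abundant or organising nucleolar proteins passed. At an unadjusted p under 0.05, 1 was higher and 1 lower, where 11.7% and 12.3% of all genes were. Npm1, which encodes nucleophosmin, a chaperone of the granular part of the nucleolus and the brightest gene of the list, was at 5126 and 4348 in the progesterone arrays, against 6215 and 5402 in the TGFb1 arrays. Both progesterone arrays lay below both TGFb1 arrays, but the difference of -0.29 ± 0.10 had an adjusted p = 0.14. Ncl, which encodes the nucleolar RNA-binding protein nucleolin, was at 4048 and 3962, against 3908 and 4063. Its difference of 0.01 ± 0.07 had the narrowest error of the list. Nolc1, a nucleolar chaperone of small nucleolar ribonucleoproteins, was at 293.2 and 327.6, against 192.3 and 251.4. Its groups did not overlap, and its 0.47 ± 0.16 had an adjusted p = 0.13. Ddx21, a nucleolar RNA helicase, was at 352.7 and 445.7, against 241.1 and 359.7, with overlapping groups (0.41 ± 0.20, adjusted p = 0.26).

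No gene of the 4 of the box C/D particles passed the test. At an unadjusted p under 0.05, 1 was higher, where 11.7% of all genes were. Fbl, which encodes fibrillarin, the methyltransferase of these particles, was at 899.3 and 864.4 in the progesterone arrays, against 605.9 and 735.5 in the TGFb1 arrays. Its groups did not overlap and its difference of 0.39 ± 0.12 had an adjusted p = 0.097. The 2 core scaffold proteins gave smaller differences, with Nop56 at 394.3 and 475.9, against 311.4 and 453.0 (0.20 ± 0.19). Nop58 was nearly level, at 128.6 and 129.8, against 136.2 and 129.8 (-0.04 ± 0.15). Rrp9, a protein of the particle that guides early cuts of the precursor, was at 96.1 and 128.6, against 92.3 and 133.7, with overlapping groups.

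The 4 genes of the box H/ACA core differed in sign. Nop10, a small structural protein, was at 2340.2 and 2465 in the progesterone arrays, against 2013 and 1938 in the TGFb1 arrays, a difference of 0.28 ± 0.08 with an adjusted p = 0.082. Gar1 was at 410.3 and 445.5, against 284.4 and 363.3 (0.39 ± 0.15, adjusted p = 0.16), and its groups did not overlap either. Dkc1, the pseudouridine synthase and the only gene of the list on the X chromosome, was at 270.7 and 269.0, against 199.5 and 254.1 (0.24 ± 0.15, adjusted p = 0.37). Nhp2 stood on the other side, with 602.4 and 573.3, against 673.4 and 624.8 (-0.14 ± 0.11, adjusted p = 0.47). None of these 4 passed, and 2 were higher at an unadjusted p under 0.05, where 11.7% of all genes were.

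Of 9 genes that act on the small subunit, 8 were tested and none passed. At an unadjusted p under 0.05, 2 were higher, where 11.7% of all genes were. Wdr75, part of a complex that joins transcription to early processing, was at 280.2 and 308.1 in the progesterone arrays, against 175.0 and 243.1 in the TGFb1 arrays (0.48 ± 0.17, adjusted p = 0.15). Wdr43, a subunit of the same complex, was at 424.8 and 419.2, against 290.6 and 399.1 (0.30 ± 0.16), and a further subunit, Utp15, at 190.5 and 207.8, against 207.9 and 179.9 (0.04 ± 0.14). Bms1, a GTPase of the small subunit processome, was at 1323 and 1332, against 1039 and 1124, with an adjusted p = 0.10. Wdr75, Wdr43, Bms1 and Utp20 each had groups that did not overlap, with progesterone higher, where 29.8% of all genes did so. The other processome genes Utp18 (-0.05), Utp20 (0.18) and Nop14 (-0.02) did not pass. Nob1, the endonuclease that makes the final cut of the small subunit RNA, was at 319.1 and 242.7, against 254.2 and 224.5 (0.21 ± 0.16), with overlapping groups. Rrp12, a factor of small subunit maturation and export, was too dim to test at 18.9 and 20.2, against 16.1 and 23.5.

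Genes of large subunit assembly held 3 of the 4 calls. All 11 had a difference above 0 after quantile normalisation, with a median of 0.21, where 53.1% of all genes did, and 3 passed as higher, where 3.05% of all genes did. Gnl3, which encodes nucleostemin, a nucleolar GTPase first known from stem cells, was at 380.7 and 370.6 in the progesterone arrays, against 209.4 and 237.7 in the TGFb1 arrays. The difference of 0.71 ± 0.13 is 1.64-fold, with an adjusted p = 0.0157. Nop2, a methyltransferase of large subunit ribosomal RNA, was at 229.6 and 248.5, against 123.3 and 146.4 (0.76 ± 0.15, adjusted p = 0.0213). Rrs1, which helps to bring ribosomal protein and small RNA components into the large subunit precursor, was at 401.2 and 310.1, against 176.5 and 230.3 (0.76 ± 0.18, adjusted p = 0.0416). In all 3 genes both progesterone arrays lay above both TGFb1 arrays, where 29.8% of all genes did. They did so on deposited values too, the only 3 of the 35 genes, where 10.5% of all genes did. The deposited differences were 0.43 for Gnl3 (adjusted p = 0.31, limma), 0.54 for Nop2 (adjusted p = 0.17) and 0.50 for Rrs1 (adjusted p = 0.23). As deposited, 4 of the 11 genes had a difference above 0, where 26.4% of all genes did.

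The remaining 8 large subunit genes did not pass. The 3 proteins of the complex that processes the large subunit precursor differed little, with Pes1 at 369.8 and 317.1 in the progesterone arrays, against 300.7 and 308.9 in the TGFb1 arrays (0.16 ± 0.13). Bop1 was at 260.2 and 272.2, against 234.7 and 292.9 (0.02 ± 0.15), and Wdr12 at 114.5 and 162.4, against 116.1 and 123.1 (0.17 ± 0.19). Gnl2, a GTPase related to Gnl3, was at 337.3 and 246.9, against 225.8 and 271.2, and its 0.21 ± 0.18 overlapped between groups. The assembly factor genes Ebna1bp2 (0.33 ± 0.15, adjusted p = 0.23) and Nip7 (0.26 ± 0.14, adjusted p = 0.32) had groups that did not overlap, as did Pes1. In each of these genes both progesterone arrays lay higher, which held for 29.8% of all genes. Wdr74 (0.15 ± 0.14) and Nop16 (0.14 ± 0.16) had overlapping groups.

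**Figure D2:**
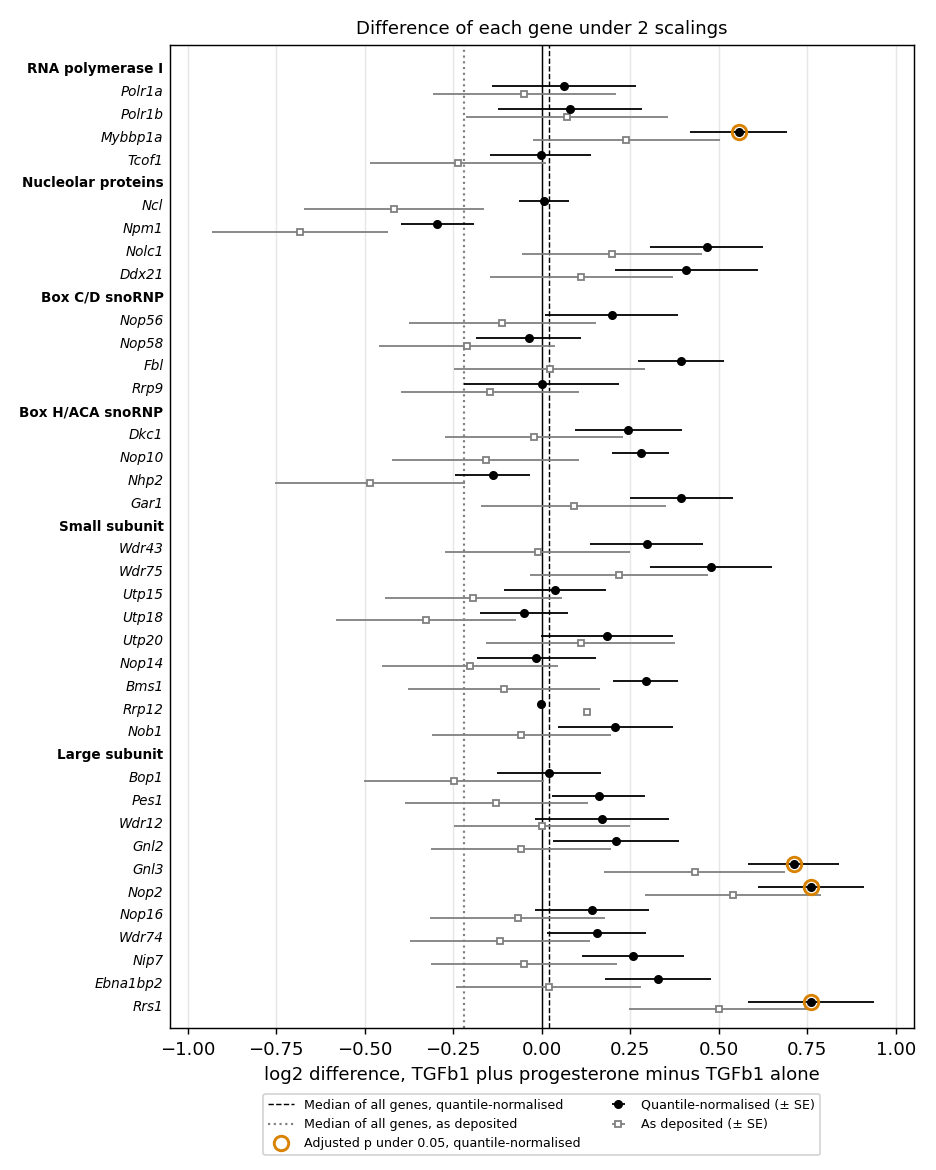
Log2 difference, TGFb1 plus progesterone minus TGFb1 alone, of each gene with quantile-normalised values (filled circles) and as deposited (open squares); bars are ± SE of the limma fit with n = 2 per group, and Rrp12, under the level filter, has none. Orange rings mark Gnl3, Nop2, Rrs1 and Mybbp1a, which passed the test after quantile normalisation; no gene passed as deposited, where the median of all genes was -0.22.

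The calls depended on which arrays were kept and on the variance model. Without progesterone replicate 1 no ribosome biogenesis gene passed, nor without progesterone replicate 2, and Gnl3 then stood at 0.69 (adjusted p = 0.12, limma) and 0.73 (adjusted p = 0.13), so its size moved little while its error grew. None passed when limma was run with no intensity trend either. Without TGFb1 replicate 1 only Gnl3 did, whereas without TGFb1 replicate 2 there were 10 genes higher and 1, Npm1, lower. Calls moved over the whole array too, with 573 of the 10512 genes higher and 656 lower without TGFb1 replicate 2, and 340 and 484 without TGFb1 replicate 1, against 321 and 552 with all arrays. They numbered 84 higher and 317 lower without progesterone replicate 1, and 49 and 200 without progesterone replicate 2. Over the 17 alternatives run, Gnl3 passed in 13, Nop2 in 11, Rrs1 in 9 and Mybbp1a in 6, and the difference of each kept its sign in all of them.

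The 36 genes had 73 probe sets, of which 65 lay above the level filter, and 22 genes had several there. For 19 of these 22 all probe sets of the gene above the filter had one sign. The exceptions were Ncl, from -0.43 to 0.14 over 5 probe sets, Polr1a, from 0.00 to 0.33, and Wdr12, from -0.13 to 0.17. Of the genes that passed, Rrs1 was read by a probe set whose name marks it as open to cross-hybridisation, and its other probe set gave 0.41, which did not pass (adjusted p = 0.34, limma, without probe sets of such names). With all probe sets of a gene averaged, neither Rrs1 (adjusted p = 0.095) nor Mybbp1a (adjusted p = 0.17) passed. Mybbp1a had 0.56 and 0.22, and Gnl3 and Nop2 had 1 probe set each. Gnl2 ran from 0.21 in its brightest probe set to 0.79 in its dimmest, and both probe sets of Npm1 lay below 0, at -0.29 and -0.12. Probe sets of Nop56, Nhp2, Gar1 and Bms1 used here also carry a name that marks possible shared transcripts.

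**Figure D3:**
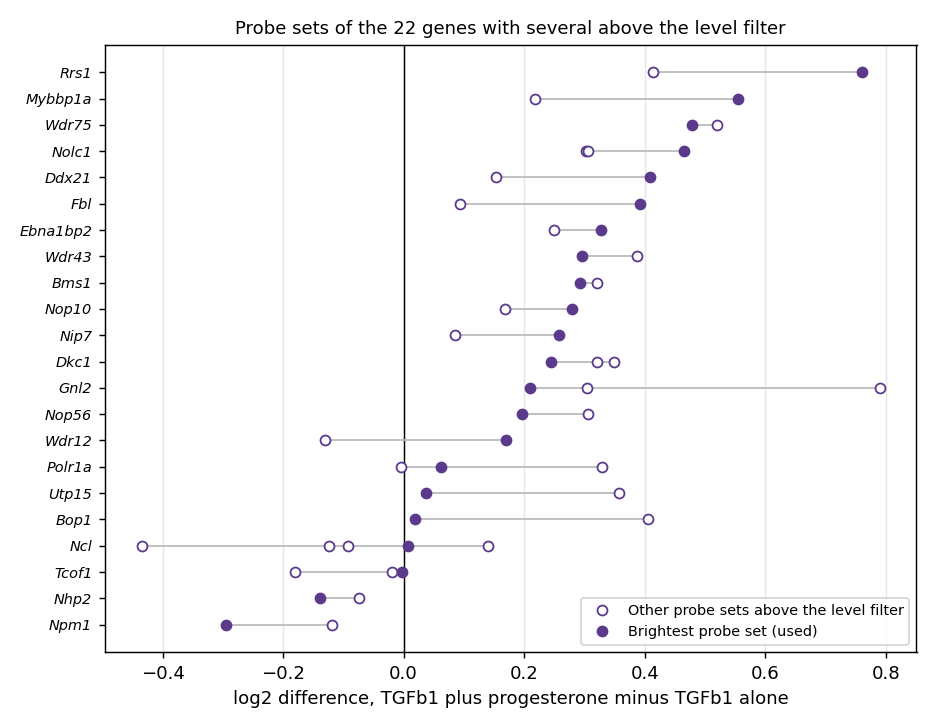
Log2 difference, TGFb1 plus progesterone minus TGFb1 alone, for every probe set above the level filter of the 22 genes with several; filled points are the brightest probe set, used in the text, and open points the others. Ncl, Polr1a and Wdr12 have probe sets on both sides of 0, and Gnl2 spans 0.21 to 0.79.

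Other genes of the pathway were taken from lists drawn up beside the 36. Without the RNA polymerase III genes, which are given apart, 126 were tested and 2 passed, 1 in each direction. Of all genes tested, 3.05% passed as higher and 5.25% as lower. The median difference of the 126 was 0.09, and -0.15 as deposited. As deposited none of them passed as higher and 3 as lower, where 1.44% and 7.63% of all genes did. Rrp1b, a nucleolar protein of large subunit processing, was at 251.9 and 228.0 in the progesterone arrays, against 129.9 and 153.8 in the TGFb1 arrays (0.70 ± 0.15, adjusted p = 0.0302), and was the 1 of 42 further large subunit genes to pass. As deposited its difference was 0.47 (adjusted p = 0.25). Utp3, a small subunit processome gene, was at 827.3 and 817.0, against 1173 and 1080.4 (-0.45 ± 0.10, adjusted p = 0.0320), and was the 1 of 40 further small subunit genes to pass. It passed as lower as deposited too. The medians of these 2 lists were 0.17 and 0.14, in that order.

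None of 14 further RNA polymerase I genes passed, with a median of -0.03 and 2 genes at an unadjusted p under 0.05. Of all genes tested, 11.7% were higher and 12.3% lower at that unadjusted p. The brightest, Polr1d, a subunit shared with RNA polymerase III, was at 2090 and 2106 in the progesterone arrays, against 2497 and 2308 in the TGFb1 arrays, and Znrd1, a small polymerase I subunit, was level at 775.3 and 759.4, against 772.7 and 765.9. None of 14 genes of the RNA exosome, which trims ribosomal RNA, and its partners passed after quantile normalisation, with 3 at an unadjusted p under 0.05. Exosc8 (-0.50 ± 0.12, adjusted p = 0.0505) and the exonuclease gene Xrn2 (-0.41 ± 0.10, adjusted p = 0.0521) lay just outside the threshold. Both passed as lower on deposited values, where 7.63% of all genes did. Of 10 small nucleolar ribonucleoprotein assembly genes none passed and 2 had an unadjusted p under 0.05, with the helicase gene Ruvbl2 at -0.34 and the cap methyltransferase gene Tgs1 at 0.35. Nor did any of 7 further RNA modification genes, none of them at an unadjusted p under 0.05, where the methyltransferase genes Emg1 (0.06) and Mettl5 (0.07) were brightest. Of 20 genes of RNA polymerase III, which makes the small ribosomal RNA of the large subunit, 1 passed, while 6 were higher and 2 lower at an unadjusted p under 0.05, and the median was 0.08, and -0.16 as deposited. That gene, Polr3c, passed as lower, where 5.25% of all genes did. Its signal was 465.1 and 423.3, against 661.9 and 622.5 (-0.52 ± 0.11, adjusted p = 0.0320).

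Myc itself fell, as did 1 of its antagonists. Myc was at 596.8 and 569.0 in the progesterone arrays, against 838.4 and 775.6 in the TGFb1 arrays (-0.46 ± 0.10, adjusted p = 0.0379). Mxd3, a repressor that shares the partner Max and is known from cells in S phase, was at 73.9 and 69.1, against 375.3 and 206.8 (-1.76 ± 0.25, adjusted p = 0.0070). Both also passed as lower as deposited, where 7.63% of all genes did and the median of all genes was -0.22. Mga, a Max partner that opposes Myc, rose, at 331.6 and 326.1, against 211.4 and 200.1 (0.64 ± 0.13, adjusted p = 0.0212), and did not pass as deposited (adjusted p = 0.40). The other tested genes of this network did not pass, with Max at -0.07, Mxd1 at -0.21, Mxd4 at 0.40, Mxi1 at -0.31, Mnt at -0.10, Mlx at -0.09 and Mlxip at 0.13. Mycn was too dim to test, at 14.1 and 24.5, against 23.9 and 22.4. Of the E-box genes printed above, Nop2 and Mybbp1a passed as higher, where 3.05% of all genes did. Pes1, Utp18, Utp20 and Wdr43 did not pass. Gnl3 passed as higher too and its window held no E-box, while Rrs1, which also passed, had no window to search. Whether Myc or the E-box had a part in these differences was not tested.

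Of 27 cell cycle genes 22 fell, where 5.25% of all genes did, with a median of -2.22, and -2.60 as deposited. The survival factor gene Birc5 was at 202.7 and 117.4 in the progesterone arrays, against 1736 and 1104 in the TGFb1 arrays (-3.04 ± 0.27, adjusted p = 0.00165), and the proliferation antigen gene Mki67 at 431.3 and 240.4, against 2572 and 1752. Rrm2 (-2.64 ± 0.27) and Top2a (-2.61 ± 0.27) fell by like amounts. The lowest difference among the 35 ribosome biogenesis genes was -0.29, for Npm1. Ribosomal protein genes had a median of 0.00, with 1 of 22 lower. That gene, Rps6, was read by a dim probe set at 153.2 and 138.9, against 236.0 and 216.2 (-0.58 ± 0.14, adjusted p = 0.0491). Of 3 tested genes of the p53 response to nucleolar stress, the cell cycle inhibitor gene Cdkn1a fell, at 171.6 and 158.7, against 452.0 and 394.6 (-1.28 ± 0.13, adjusted p = 0.00223).

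**Figure D4:**
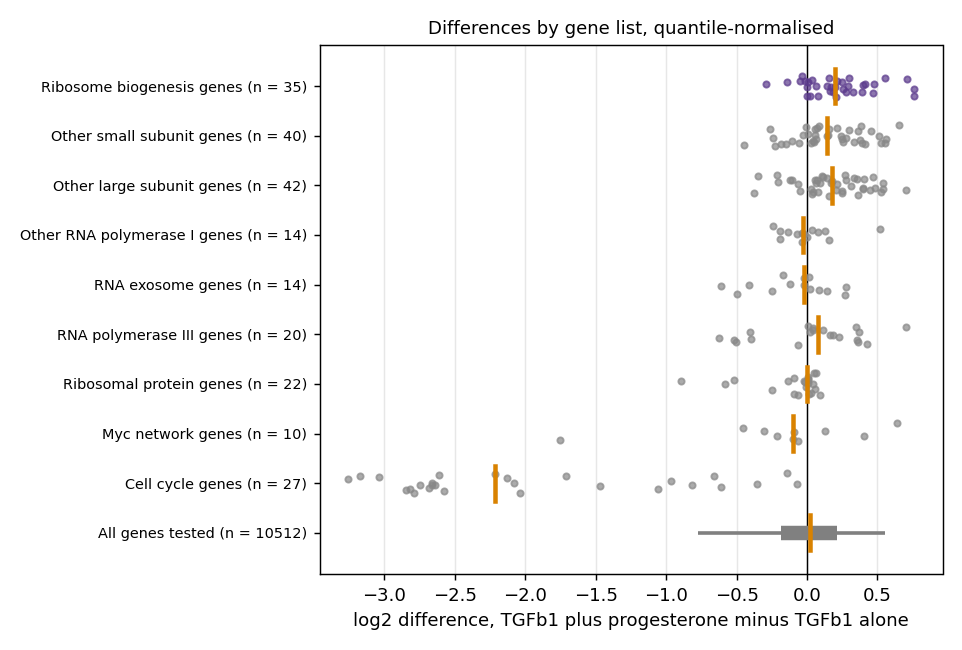
Log2 difference, TGFb1 plus progesterone minus TGFb1 alone, of the ribosome biogenesis genes (purple) and related lists (grey), 1 point per gene, with the median of each list as an orange bar; for all 10512 genes the thick bar covers the middle 50% and the thin bar the middle 90%. The ribosome biogenesis genes lie between -0.29 and 0.76 with a median of 0.20, while the cell cycle genes have a median of -2.22.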

How the data were processed

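The deposited table holds linear signal intensity for 45101 probe sets. Per the submitters' processing notes the authors used MAS5, whose version and scaling target are not given in the sources used here. Without detection calls a dim signal has no limit of detection, and the number of arrays (2 per group, 2 residual degrees of freedom) limits the precision. The labels gave groups and replicate numbers but no slide or scan, and no such block was fitted. The list of 36 genes, the other lists and the tests were chosen with earlier results of these data known.

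The 64 control probe sets were left out. Probe sets with 1 gene in the platform annotation (34945) were named, and their symbols updated through Entrez numbers from RefSeq's GRCm38.p6 gene table (34741 matched). Values were quantile normalised because the trimmed means (2% off each end) differed up to 1.43-fold between arrays, and then taken as log2(signal + 16). A gene was kept if its brightest probe set had a mean above the median of all probe sets (a signal of 24.8), which left 10512 genes. The test was limma's (version 3.58.1, R 4.3.3), with lmFit and a trended eBayes, adjusted by Benjamini-Hochberg at 0.05. The fit was tested on simulated data. Named were all 36 genes, every gene of the Myc network, up to 4 genes that passed in each other list (the 2 brightest where none passed), the 2 brightest of each marker list and 4 sex chromosome genes. Alternatives changed the scaling, pseudocount, level filter, variance model, probe set choice, replicate block and arrays used; 1 more, without X and Y genes, was chosen after seeing the data.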

Additional observations from a re-analysis of the deposited data

How the results depend on the processing

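Of 10512 genes, 321 passed as higher and 552 as lower. As deposited 151 passed as higher; with no level filter the counts were 166 and 321, and with no intensity trend 128 and 326. The number of ribosome biogenesis genes higher was 4, but 0 as deposited, 1 with no level filter, 0 with no intensity trend and 2 when all probe sets of a gene were averaged. The replicate numbers are not shown to pair the arrays (same-numbered arrays deviated together with r = 0.20, and there are only 2 pairs); with the replicate block 11 ribosome biogenesis genes passed as higher and 1 as lower, and 892 and 1004 of all genes. Leaving out 1 array gave 49 to 573 genes higher and 200 to 656 lower, with 0 to 10 ribosome biogenesis genes higher and 0 to 1 lower. The median difference of the list was 0.20, 0.10 to 0.27 without 1 array and -0.0574 as deposited. Such fits leave a group with a single array, taken to vary as the other group does. The cause of these changes was not tested. Without genes of the X and Y chromosomes, an alternative chosen after seeing the data, 3 ribosome biogenesis genes passed as higher, with Mybbp1a at an adjusted p = 0.051.

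Signs turned only for genes that did not pass. As deposited these were Polr1a (-0.0489), Ncl (-0.42), Nop56 (-0.11), Dkc1 (-0.0217), Nop10 (-0.16), Wdr43 (-0.0119), Utp15 (-0.19), Bms1 (-0.11), Nob1 (-0.0574), Bop1 (-0.25), Pes1 (-0.13), Wdr12 (-0.00039), Gnl2 (-0.0585), Nop16 (-0.0680), Wdr74 (-0.12) and Nip7 (-0.0498). With trimmed-mean scaling they were Tcof1 (0.0409), Ncl (-0.12), Nop58 (0.0546), Rrp9 (0.12) and Nop14 (0.0646), and with each array centred on the median of the genes tested Tcof1 (0.0139), Ncl (-0.17), Nop58 (0.0389), Rrp9 (0.10) and Nop14 (0.0478). Rrp9 was at 0.00089 with a pseudocount of 1 and Ncl at -0.10 with the mean of its probe sets. Leaving out 1 array gave Tcof1 -0.0993 to 0.0930, Ncl -0.0209 to 0.0352, Rrp9 -0.23 to 0.23, Gnl2 -0.0032 to 0.42, Polr1a -0.15 to 0.27, Utp15 -0.0585 to 0.13, Nop14 -0.17 to 0.14, Bop1 -0.13 to 0.17, Wdr12 -0.0554 to 0.40 and Nop56 -0.0622 to 0.46.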
